A study of Mus musculus with 7 samples.

Results

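The lipid droplet coat and lipolysis genes are 10 named genes, Plin2, Plin3, Plin5, Cideb, G0s2, Pnpla2, Pnpla3, Abhd5, Hilpda and Mgll. They were picked by gene symbol out of the 51426 genes counted in each library, and all 10 passed the filter on low counts that left 14754 genes to test. A lipid droplet is a store of triglycerides and cholesteryl esters under a phospholipid monolayer, and proteins bound to that surface decide when the store may be opened. Perilipins coat the droplet and hold lipases back. Triglyceride is then broken down in steps, first by the lipase ATGL (gene Pnpla2), which needs the coactivator ABHD5 and is held in check by the inhibitors G0S2 and HILPDA, and last by monoacylglycerol lipase (gene Mgll). In the fatty liver, droplets and their perilipin coat are the most visible change of the hepatocyte.

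The livers came from male mice, labelled C57BL/6J in both groups, on a high-fat diet (HFD, 60% of calories from fat) given for 16 weeks from 8 weeks of age, so that the mice were 24 weeks old at the end. The groups were 3 WT mice and 4 mice with a whole body TET1 knockout (TET1 KO), and all 7 mice had the diet, so no comparison with a normal diet can be made from them. TET1 is an enzyme that oxidizes 5-methylcytosine in CG dinucleotides and so starts the removal of DNA methylation. The study used more than one whole body knockout line. The labels name none, and the notation of the paper for the sequenced livers (TET1-/-) is the one it uses for the constitutive knockout rather than for the floxed mice with β-actin Cre. That knockout was obtained as the mixed-background stock B6;129S4-Tet1tm1.1Jae/J, so the background of these mice may not be fully C57BL/6J.

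The libraries held between 15005277 and 22746138 gene counts. For Tet1 itself, 1, 4 and 1 reads were counted in WT replicates 1 to 3, and 2, 1, 4 and 1 reads in TET1 KO replicates 1 to 4, so the counts of the targeted gene do not tell the genotypes apart. The hepatocyte genes Alb, Apoa1, Ttr, Cps1 and Cyp2e1 together made up 62920 to 84464 CPM (the count scaled to a common library size, after TMM normalization) in WT livers and 74930 to 84396 in TET1 KO livers. Alb held most of each sum. The log2 fold changes, TET1 KO against WT, were 1.10 for Apoa1, -0.45 for Cps1, -0.07 for Alb, 0.10 for Ttr and 0.12 for Cyp2e1. None had an adjusted p under 0.05 in the edgeR test given below. On the first principal component of all tested genes the groups were apart, and the TET1 KO liver closest to WT was replicate 4.

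The promoters of the 4 perilipin genes that could be tested are shown first. Among them Plin2 and Plin4 were lower in TET1 KO livers at an adjusted p under 0.05 in the test given below. Plin3 and Plin5 did not pass. CG dinucleotides, where TET1 acts, are printed in capitals. Each is the RefSeq window of 300 bases on GRCm38.p6, from 250 bases before the transcript start to 50 bases after it, written 5′ to 3′ on the strand of the gene. Plin2 lies at chr4:86670010-86670309, Plin3 at chr17:56290462-56290761, Plin4 at chr17:56109733-56110032 and the upstream start of Plin5 at chr17:56117499-56117798, all on the minus strand.
Plin2: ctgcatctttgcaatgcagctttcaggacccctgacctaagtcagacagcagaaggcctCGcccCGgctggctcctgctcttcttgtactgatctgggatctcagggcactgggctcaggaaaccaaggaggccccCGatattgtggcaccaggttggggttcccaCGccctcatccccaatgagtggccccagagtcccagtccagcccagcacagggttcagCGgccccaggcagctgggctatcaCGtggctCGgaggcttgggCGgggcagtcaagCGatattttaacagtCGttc
Plin3: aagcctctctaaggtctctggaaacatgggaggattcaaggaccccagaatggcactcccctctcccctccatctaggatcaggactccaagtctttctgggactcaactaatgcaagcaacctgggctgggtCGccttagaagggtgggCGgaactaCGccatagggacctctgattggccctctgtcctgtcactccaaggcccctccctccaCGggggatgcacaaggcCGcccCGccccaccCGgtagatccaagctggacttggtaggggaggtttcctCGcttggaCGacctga
Plin4: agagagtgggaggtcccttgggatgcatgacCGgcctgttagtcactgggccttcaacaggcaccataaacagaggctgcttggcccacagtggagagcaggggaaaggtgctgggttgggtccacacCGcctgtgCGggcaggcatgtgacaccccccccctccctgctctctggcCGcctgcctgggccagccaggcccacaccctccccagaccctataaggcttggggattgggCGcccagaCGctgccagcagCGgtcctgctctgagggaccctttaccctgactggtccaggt
Plin5: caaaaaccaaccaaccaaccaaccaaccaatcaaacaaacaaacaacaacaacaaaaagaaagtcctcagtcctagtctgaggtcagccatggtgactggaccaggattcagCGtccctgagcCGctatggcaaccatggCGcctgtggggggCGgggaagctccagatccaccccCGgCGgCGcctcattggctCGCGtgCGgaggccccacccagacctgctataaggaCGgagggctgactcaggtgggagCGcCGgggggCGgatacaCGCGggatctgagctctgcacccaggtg

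The Plin2 window held 10 CG dinucleotides, Plin3 9, Plin4 7 and Plin5 16, beside a median of 7 in all 32851 promoters of the table. The other members ranged from 7 in Cideb to 42 at the downstream start of Mgll, with 13 in G0s2, 18 in Pnpla2, 15 in Pnpla3, 32 in Abhd5 and 27 at the downstream start of Hilpda. Counting alternative starts, the 10 members had 13 promoters. The letters AGGTCA, a hexamer that nuclear receptors such as the PPARs read, were found on either strand in 4 of these 13, at base 33 of the Plin2 window, once in each of the overlapping Plin5 windows and in Abhd5. Of all promoters 16.3% held them. CACGTG, an E-box, was in 2 of the 13, those of Plin2 and of the upstream Mgll start, against 7.15% of all promoters, and it holds a CG within it. TATAAA was in 1 of the 13, that of Cideb, against 13.6%. These letter matches are descriptions of the windows, and no methylation or binding was measured in these livers.

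Of the 10 members, 1 was lower in TET1 KO livers and 0 were higher at an adjusted p under 0.05 from edgeR's quasi-likelihood test, with p-values adjusted by the Benjamini-Hochberg method over all tested genes. Plin2 was the member that fell. Of all tested genes 2.02% were called in either direction, and 1.15% were called lower. The groups did not overlap for 2 members, Plin2 and Pnpla3, both lower in TET1 KO livers, where 22.5% of all tested genes had groups apart in one direction or the other. The log2 fold changes of the members, TET1 KO against WT, were negative for 7 and positive for 3, with a median of -0.18 beside 0.01 for all tested genes. In these whole livers, fewer cells of a type and less RNA per cell cannot be told apart.

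**Figure D1:**
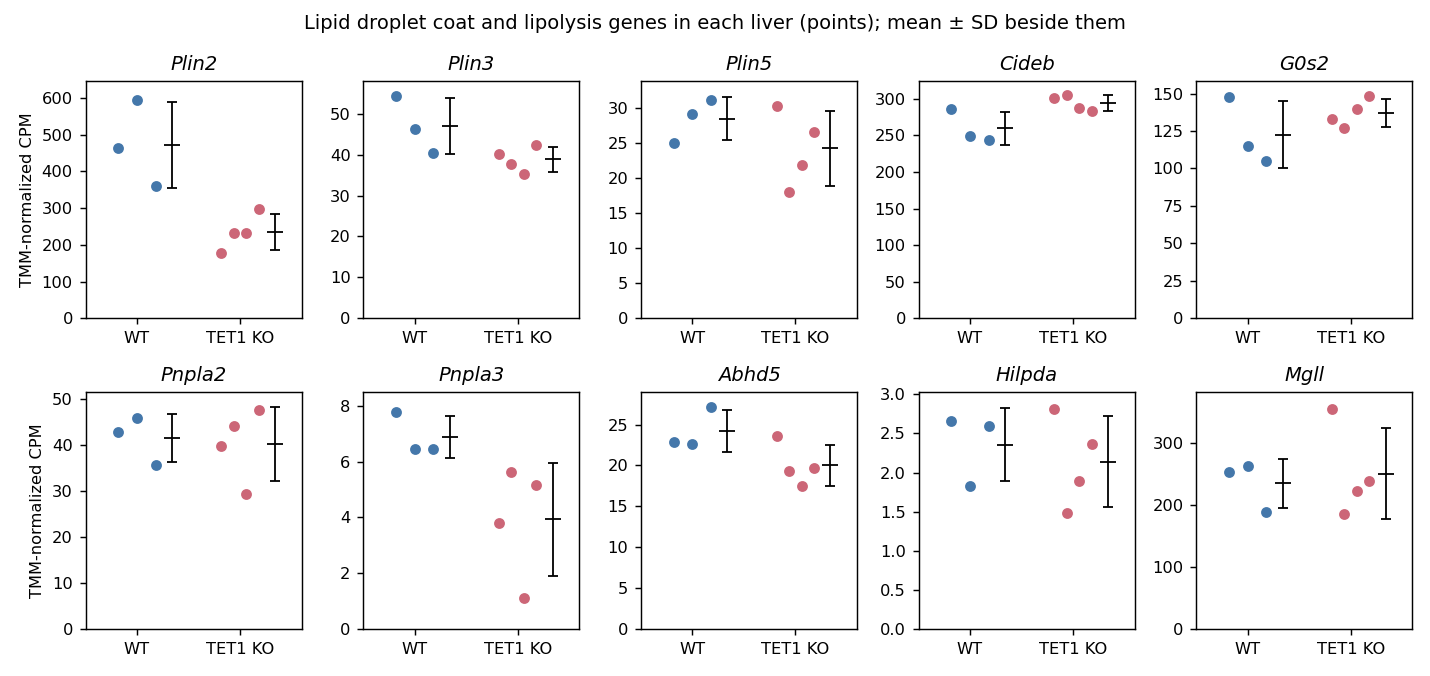
TMM-normalized CPM (vertical axis of each panel, from 0) of the 10 members in each of 3 WT livers (blue points) and 4 TET1 KO livers (red points), with the mean and SD of each group beside the points. The groups were apart for Plin2 and Pnpla3 and overlapped for the other members.

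Among the droplet coat genes, Plin2 encodes perilipin 2, the main perilipin of fat-laden hepatocytes, which is stabilized by the lipid it covers. Plin2 (ENSMUSG00000028494, chr4:86626910-86670217 of GRCm38, minus strand) had 463, 594 and 360 CPM in WT livers and 177, 231, 233 and 298 CPM in TET1 KO livers. Each TET1 KO liver lay below the lowest WT liver, and TET1 KO replicate 4 came closest to it. The WT mean was 473 ± 117 CPM (SD, n = 3) and the TET1 KO mean 235 ± 49.6 CPM (SD, n = 4), a fall of 50.3% in the fit. Its log2 fold change was -1.01 (SE 0.21, 95% confidence interval -1.47 to -0.55), with an adjusted p of 0.0382 from edgeR, and it ranked at 205 among the tested genes by p. DESeq2 gave -1.04 with an adjusted p of 0.000253.

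The call on Plin2 depended on which livers were in the fit. In the 7 fits that each left out 1 liver, its log2 fold change ranged from -1.19 to -0.82, but the edgeR adjusted p passed 0.05 in 5 of them. It was 0.0550 without WT replicate 1, 0.191 without WT replicate 2, 0.0587 without TET1 KO replicate 1, 0.0942 without TET1 KO replicate 2 and 0.110 without TET1 KO replicate 3. Without WT replicate 3 or TET1 KO replicate 4 the call was kept, at 0.0220 and 0.0221. WT replicate 2 had the highest Plin2 of the 7 livers, and the difference was smallest without it.

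**Figure D2:**
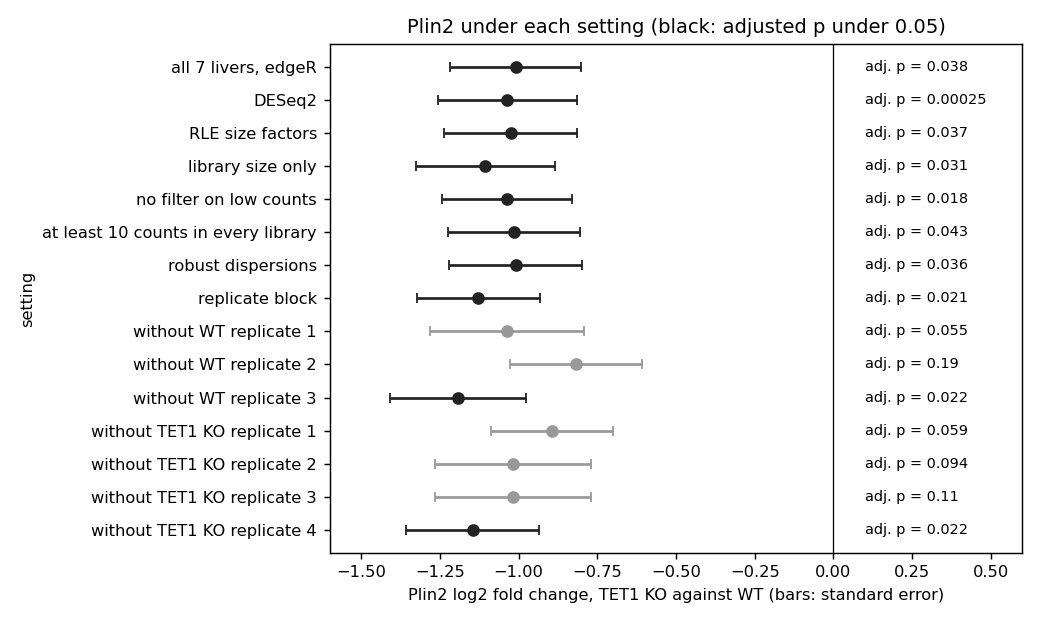
Log2 fold change of Plin2, TET1 KO against WT (horizontal axis; points with standard error), under each setting of the test and with each liver left out (vertical axis), with the adjusted p beside each. Every value lies between -1.19 and -0.82, and the points in grey, all of them fits without 1 liver, have an adjusted p over 0.05.

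Plin3 encodes perilipin 3, a coat protein that shuttles between the cytosol and young droplets. Plin3 (ENSMUSG00000024197, chr17:56278962-56290511, minus strand) had 54.3, 46.3 and 40.5 CPM in WT livers and 40.1, 37.8, 35.3 and 42.3 CPM in TET1 KO livers. The groups overlapped, although 3 of the 4 TET1 KO livers lay below the lowest WT liver. Its log2 fold change of -0.27 (SE 0.14, 95% confidence interval -0.58 to 0.03, edgeR adjusted p = 0.222) did not pass the threshold.

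Plin5 encodes perilipin 5, which ties droplets to mitochondria in tissues that burn fat. Plin5 (ENSMUSG00000011305, chr17:56111597-56117606, minus strand) had 25.1, 29.2 and 31.2 CPM in WT livers and 30.4, 18.1, 21.9 and 26.7 CPM in TET1 KO livers. The groups overlapped, with TET1 KO replicate 1 close to the highest WT liver, and the log2 fold change was -0.23 (SE 0.18, 95% confidence interval -0.63 to 0.16, edgeR adjusted p = 0.422).

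Cideb encodes the CIDE protein of hepatocytes, which acts on droplets and in loading lipid onto VLDL. Cideb (ENSMUSG00000022219, chr14:55754052-55758424, minus strand) had 286, 249 and 243 CPM in WT livers and 301, 305, 287 and 283 CPM in TET1 KO livers. The spread within the groups was small, 3 of the 4 TET1 KO livers lay above the highest WT liver, and the log2 fold change of 0.18 (SE 0.13, 95% confidence interval -0.10 to 0.46, edgeR adjusted p = 0.378) did not pass the threshold. The Cideb gene overlaps Nop9, which had a mean of 15.1 CPM, and Ltb4r2, which had 0.337 CPM.

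Levels of different genes can be compared only per length, as CPM per kb of exon. On that scale Cideb (174 CPM per kb), G0s2 (146) and Plin2 (135) led in WT livers. Cideb overlapped with G0s2 and G0s2 with Plin2 over the WT livers. Mgll followed at 48.2 CPM per kb, then Plin3 at 21.8, Pnpla2 and Plin5 both at 13.7, Abhd5 at 7.43, Hilpda at 2.14 and Pnpla3 at 1.49. Of these lower neighbours, Pnpla2 overlapped with Plin5 and Hilpda with Pnpla3. In TET1 KO livers the order by mean was the same, but Plin2, at 66.8 CPM per kb, lay apart from G0s2 at 163 and overlapped with Mgll at 51.5. Cideb and G0s2 were also apart there, as were Hilpda and Pnpla3, while Pnpla2 and Plin5 still overlapped.

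The perilipin mRNAs were also compared as a mix, with Plin4 added from the list of other droplet proteins. Plin2, Plin3, Plin4 and Plin5 summed to 178, 211 and 141 CPM per kb in WT livers and to 85.6, 93.9, 95.3 and 120 CPM per kb in TET1 KO livers. The sums did not overlap, and Plin2 made up most of each. Plin2 took 75.7% ± 3.94 of the sum in WT livers (SD, n = 3) and 67.3% ± 5.71 in TET1 KO livers (SD, n = 4). The share of Plin3 was 12.5% and 18.5%, that of Plin5 7.99% and 12.0%, and that of Plin4 3.80% and 2.24%, in WT and TET1 KO livers respectively. These shares are descriptions, and they rest on the same counts as the tests of the single genes.

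**Figure D3:**
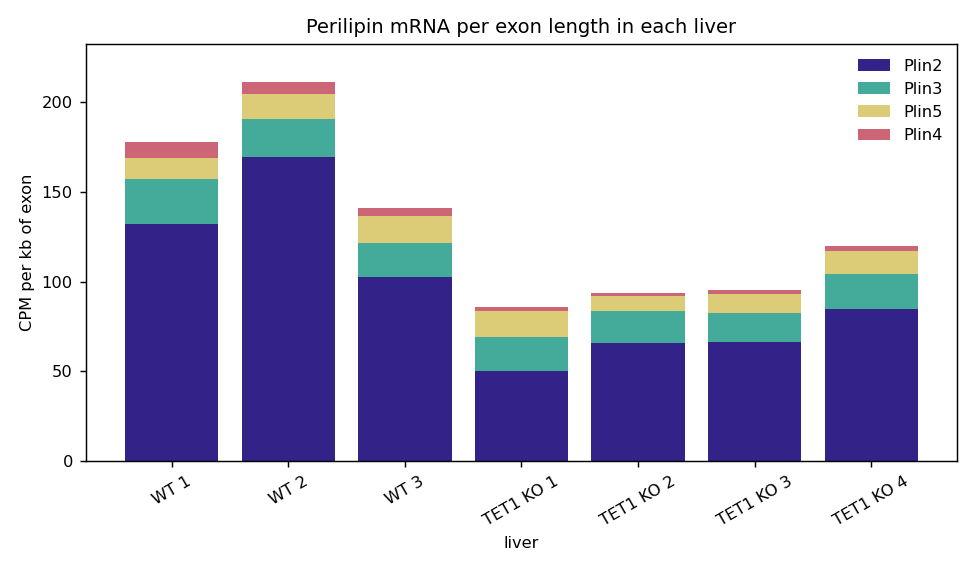
CPM per kb of exon (vertical axis, from 0) of Plin2, Plin3, Plin5 and Plin4, stacked for each liver (horizontal axis). The stacks of the 3 WT livers reach 141 to 211 and those of the 4 TET1 KO livers 85.6 to 120, and the Plin2 block is the part that differs most in height.

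Within a library a ratio between genes does not depend on how libraries are scaled, so 6 ratios were tested by exact two-sided permutation over the 35 splits of the 7 livers, which allow no p under 0.0286. The log2 ratio of Plin2 to Plin3 was 3.09, 3.68 and 3.15 in WT livers and 2.14, 2.61, 2.72 and 2.81 in TET1 KO livers. The groups did not overlap, and the difference of -0.74 had an exact permutation p of 0.0286, the smallest these splits can give, but 0.171 after adjustment over the 6 ratios. The log2 ratio of Plin2 to Plin5 differed by -0.75 (exact permutation p = 0.114, adjusted 0.343), and its groups overlapped. With this floor a single ratio cannot pass 0.05 after adjustment over 6, so the adjusted values say nothing of stability. Against Plin4, which fell more than Plin2, no ratio was tested.

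Pnpla2 encodes ATGL, the lipase that opens triglyceride breakdown. Pnpla2 (ENSMUSG00000025509, chr7:141455188-141460743, plus strand) had 42.8, 45.8 and 35.7 CPM in WT livers and 39.8, 44.2, 29.3 and 47.6 CPM in TET1 KO livers. The groups were mixed throughout, and the log2 fold change of -0.04 (SE 0.17, 95% confidence interval -0.43 to 0.34, edgeR adjusted p = 0.890) was near 0. The interval still holds a fall or a rise of moderate size.

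Abhd5 encodes the ATGL coactivator, which perilipins keep away from the lipase until lipolysis is switched on. Abhd5 (ENSMUSG00000032540, chr9:122351616-122381524, plus strand) had 22.9, 22.6 and 27.2 CPM in WT livers and 23.5, 19.3, 17.5 and 19.7 CPM in TET1 KO livers. TET1 KO replicate 1 lay within the WT range and the other 3 below it, with a log2 fold change of -0.27 (SE 0.14, 95% confidence interval -0.59 to 0.04, edgeR adjusted p = 0.248).

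The 2 inhibitors of ATGL did not pass the test either. G0s2 (ENSMUSG00000009633, chr1:193272160-193273188, minus strand), whose product binds ATGL directly and which was the more abundant inhibitor per length, had 148, 115 and 105 CPM in WT livers and 133, 127, 140 and 148 CPM in TET1 KO livers. WT replicate 1 matched the highest TET1 KO liver, and the log2 fold change was 0.16 (SE 0.14, 95% confidence interval -0.16 to 0.48, edgeR adjusted p = 0.490). Hilpda (ENSMUSG00000043421, chr6:29272488-29275449, plus strand), the hypoxia-inducible inhibitor, was near the low end with 54, 44 and 47 counts in WT livers and 45, 21, 37 and 51 counts in TET1 KO livers. These counts correspond to 2.66, 1.82 and 2.59 CPM and to 2.82, 1.48, 1.89 and 2.37 CPM, and the groups were mixed (log2 fold change -0.13, SE 0.28, 95% confidence interval -0.73 to 0.48, edgeR adjusted p = 0.788).

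Ratios to Pnpla2 compare the lipase with its partners in the same liver. The log2 ratio of G0s2 to Pnpla2 differed by 0.23 between TET1 KO and WT livers (exact permutation p = 0.400), that of Hilpda to Pnpla2 by -0.09 (exact permutation p = 0.771), that of Abhd5 to Pnpla2 by -0.22 (exact permutation p = 0.343) and that of Plin5 to Pnpla2 by -0.19 (exact permutation p = 0.571). All 4 ratios overlapped between the groups. The G0s2 to Pnpla2 ratio was highest in TET1 KO replicate 3, at 2.25, where Pnpla2 was lowest.

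**Figure D4:**
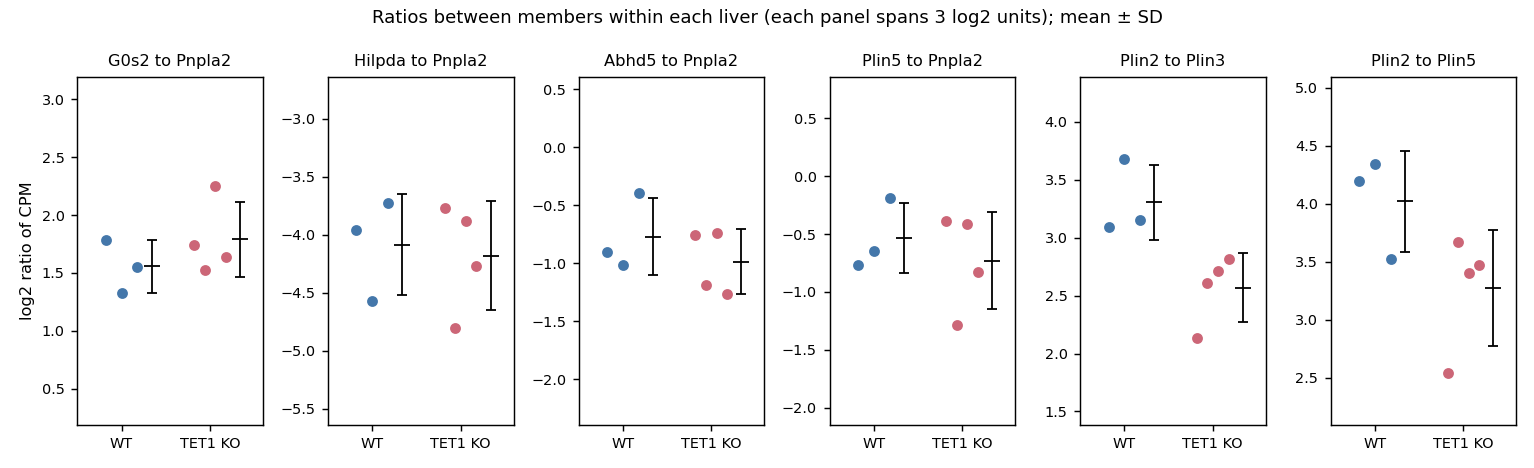
Log2 ratio of CPM between the 2 genes named above each panel (vertical axis, each panel spanning 3 log2 units) in 3 WT livers (blue) and 4 TET1 KO livers (red), with the mean and SD of each group. In the Plin2 to Plin3 panel the groups are apart, at 3.09 to 3.68 in WT livers and 2.14 to 2.81 in TET1 KO livers, and in the other panels they overlap.

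Pnpla3 encodes a droplet-bound relative of ATGL whose mRNA is known to follow feeding and insulin in the liver. Pnpla3 (ENSMUSG00000041653, chr15:84167776-84189521, plus strand) had 158, 156 and 117 counts in WT livers and 61, 80, 22 and 111 counts in TET1 KO livers, that is 7.78, 6.47 and 6.46 CPM against 3.82, 5.64, 1.13 and 5.15 CPM. All TET1 KO livers lay below the WT livers, and TET1 KO replicate 3 lay far below the rest. The log2 fold change was -0.82 with a wide interval (SE 0.39, 95% confidence interval -1.68 to 0.04), and the edgeR adjusted p of 0.205 did not pass. Without TET1 KO replicate 3 it was -0.52 (edgeR adjusted p = 0.221).

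Mgll encodes the last lipase of the chain, which splits monoacylglycerols, also those that act on cannabinoid receptors. Mgll (ENSMUSG00000033174, chr6:88724412-88828360, plus strand) had 253, 262 and 189 CPM in WT livers and 355, 186, 223 and 239 CPM in TET1 KO livers. TET1 KO replicate 1 held the highest value and TET1 KO replicate 2 the lowest of the 7 livers, and the log2 fold change of 0.09 (SE 0.22, 95% confidence interval -0.38 to 0.57, edgeR adjusted p = 0.802) changed sign when single livers were left out. The Mgll gene overlaps the long noncoding RNA gene Gm26588, which had a mean of 11.3 CPM.

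Genes near the members in the pathway were taken from 3 lists. Of 16 other lipid droplet proteins 15 were tested, and 1 was lower and 0 were higher, with a median log2 fold change of -0.33. Of 7 neutral lipid hydrolases 1 was lower and 0 were higher, with a median of 0.02, and of 10 regulators known for the members 1 was lower and 0 were higher, with a median of 0.08. The 3 called genes were Plin4, Lipa and Pparg.

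Plin4 encodes perilipin 4, a coat protein best known from fat tissue. It lies 1649 bases from Plin5 on chromosome 17. Plin4 had 49.0, 37.7 and 28.4 CPM in WT livers and 12.4, 10.2, 12.1 and 16.1 CPM in TET1 KO livers. The groups were far apart, and the log2 fold change was -1.59 (SE 0.20, edgeR adjusted p = 0.00602). Its adjusted p stayed under 0.05 in all 7 fits that left out 1 liver, unlike that of Plin2. Its neighbour Plin5 did not pass.

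Lipa encodes lysosomal acid lipase, which breaks down droplet lipid delivered by autophagy. Lipa had 151, 211 and 143 CPM in WT livers and 71.9, 89.3, 80.1 and 109 CPM in TET1 KO livers, with no overlap. The log2 fold change was -0.95 (SE 0.18, edgeR adjusted p = 0.0280), and the adjusted p passed 0.05 in 4 of the 7 fits that left out 1 liver, reaching 0.142 without WT replicate 2. The cytosolic lipases Pnpla2 and Mgll were not called.

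Pparg encodes the nuclear receptor PPARγ, known to drive Plin2, Plin4, Cidea and Cidec in fatty liver. Pparg had 17.1, 15.4 and 8.11 CPM in WT livers and 2.44, 6.06, 4.35 and 4.69 CPM in TET1 KO livers. The groups were apart, and the log2 fold change was -1.63 (SE 0.31, edgeR adjusted p = 0.0265), with an adjusted p over 0.05 in 3 of the 7 fits that left out 1 liver and up to 0.149, without WT replicate 2. In the edgeR test of all 7 livers without the replicate block, the most abundant gene of each list was not called. Mettl7b, a droplet-associated protein of hepatocytes, had a log2 fold change of 0.23 (edgeR adjusted p = 0.363). Aadac, an esterase, had 0.12 (edgeR adjusted p = 0.637). Mlxipl, which encodes the carbohydrate-sensing factor ChREBP, had 0.90 (edgeR adjusted p = 0.0793), with every TET1 KO liver above the WT livers. It was called by DESeq2 (log2 fold change 0.88, adjusted p = 0.0100). It was also called by edgeR with the replicate number as a block (1.03, adjusted p = 0.0216) and by edgeR without TET1 KO replicate 4 (1.03, adjusted p = 0.0450). These edgeR fits are not separate evidence. No WT liver is numbered 4, so with the block TET1 KO replicate 4 adds nothing to the genotype difference.

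**Figure D5:**
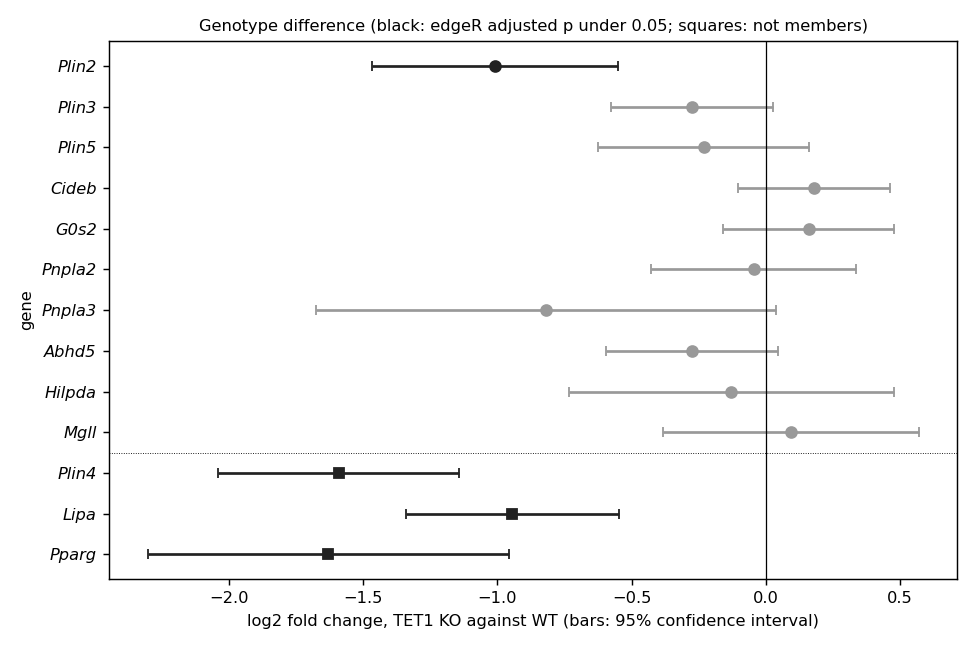
Log2 fold change, TET1 KO against WT (horizontal axis; bars are 95% confidence intervals), of the 10 members (circles) and of the 3 called genes of the other lists (squares, under the dotted line). Plin2, Plin4, Lipa and Pparg (black) have an adjusted p under 0.05, and the intervals of the other 9 members hold 0.

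Over the 7 livers, the tested genes whose log2 CPM ran closest to Plin2 after centring were Lipa, Mcm3 and Gm5345, with root mean square differences of 0.105, 0.108 and 0.108, beside a median of 0.635 over all tested genes. In Lipa as in Plin2, WT replicate 2 was the highest liver, TET1 KO replicate 1 the lowest, and TET1 KO replicate 4 the highest of its group. Mcm3, a subunit of the DNA replication helicase, had 5.08 to 7.71 CPM in WT livers and 2.63 to 4.41 CPM in TET1 KO livers. For Pnpla3 the closest were Gm4430, Cfap43 and Gm16348, at 0.332, 0.346 and 0.363 against a median of 0.888. In each of them TET1 KO replicate 3 was the lowest liver, at only 0.205, 0.358 and 0.460 CPM. As they were picked for the likeness of their profile to that of Pnpla3, this shared low liver is no separate result.

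Markers of other liver cells were read beside these results. Among the 6 adipocyte markers, the sum was 2.21 to 3.30 CPM in WT livers and 0.278 to 20.6 CPM in TET1 KO livers. The high value belonged to TET1 KO replicate 2, with 60 counts of Adipoq and 70 counts of Plin1, the perilipin of fat cells. Adipoq had 0 counts in the other livers apart from 9 in WT replicate 2, and Plin1 had 0 to 4. The droplet protein genes Cidea and Cidec, named here after their values were seen, were also high in TET1 KO replicate 2 within its group, at 6.69 and 3.66 CPM. Cidec, which fuses droplets into larger ones, had 13.9, 24.7 and 1.71 CPM in WT livers and 1.13, 1.02 and 1.35 CPM in TET1 KO replicates 1, 3 and 4. The difference in Cidec, -2.95 on the log2 scale, was not called by edgeR without the replicate block (adjusted p = 0.0550). It was called by DESeq2 (adjusted p = 0.0263) and by edgeR with the replicate block (log2 fold change -2.50, adjusted p = 0.0242). Cidea, a CIDE protein best known from brown fat, had 8.66, 11.3 and 0.883 CPM in WT livers and 0.188, 0.0511 and 0.0928 CPM in the same TET1 KO replicates. Over all 7 livers Cidea differed by -2.12 on the log2 scale (edgeR adjusted p = 0.248). Without TET1 KO replicate 2 it was called lower (edgeR adjusted p = 0.0274). TET1 KO replicates 1, 3 and 4 held only 3, 1 and 2 counts of it, so no fold is given for that fit. In the same fit without TET1 KO replicate 2 the log2 fold change of Plin2 was -1.02, with the edgeR adjusted p of 0.0942 given above. Summed cholangiocyte markers were 29.7 to 37.8 CPM in WT livers and 46.1 to 68.0 CPM in TET1 KO livers, and summed endothelial markers 126 to 128 CPM and 106 to 124 CPM, both without overlap. Of all tested genes 22.5% had groups apart. Spp1 was the largest part of the cholangiocyte sum, and Krt19 and Krt7 overlapped between the groups while Epcam, Sox9 and Spp1 did not. The endothelial log2 fold changes were -1.08 for Lyve1, -0.42 for Pecam1, -0.08 for Stab2, -0.02 for Clec4g and 0.09 for Kdr. Stellate markers (210 to 314 and 197 to 276 CPM), macrophage markers (177 to 293 and 130 to 293 CPM) and lymphocyte markers (1.95 to 2.92 and 2.63 to 5.71 CPM) overlapped, and muscle markers did not exceed 0.443 CPM. None of the marker genes that could be tested was called in any of these lists by edgeR, and the part of such cells in the Plin2 result was not tested.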

How the data were processed

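Liver RNA of 3 WT and 4 TET1 KO mice was sequenced from stranded libraries, and replicate numbers and groups were taken from the labels. The authors deposited raw read counts per Ensembl gene for each mouse. Per the labels, Trimmomatic 0.36, GSNAP and featureCounts 1.5.3 were used with GRCm38, and the strand setting of the counting is not given in the sources used here, so overlapping genes remain uncertain. The labels name poly(A) selection and rRNA depletion as alternatives. The replicates are separate mice per the study's own description of the data.

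Tables were joined by identifier, since 26 symbols differed between them, and 5 repeated entries were dropped. Counts were tested in R 4.3.3 with edgeR 4.0.16 (filterByExpr, TMM, glmQLFit and glmQLFTest) without covariates, and genes were called at an adjusted p under 0.05. DESeq2 1.42.0 was the alternative. The SE is the log2 fold change over the root of the F statistic. Log2 CPM used a prior count of 2. Exon lengths came from an older annotation (GENCODE M1, NCBIM37), matched by identifier, gene coordinates and promoters from RefSeq (GRCm38.p6), and all 10 members were matched. The scripts were tested on simulated data.

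The members and lists were chosen with earlier results of these data known. The genes named were the members, the called genes and the most abundant gene of each list, and the 3 genes nearest to each of the 2 members with the smallest p. The labels carry no batch. No pair of libraries of a genotype agreed within sampling noise (lowest chi-square per degree of freedom 25). The alternatives were DESeq2, other scalings, filters, dispersions and thresholds, the replicate block, a prior count of 0.5 and leaving out each liver.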

Additional observations from a re-analysis of the deposited data

Results flagged for a closer look

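In TET1 KO replicate 2 the summed CPM of the adipocyte markers was 20.6, while the other 3 TET1 KO livers had 0.278 to 0.767. Its gap to the nearest of them took a share of 0.976 of the whole range of the group, over the limit of Dixon's test for 4 samples. The summed lymphocyte markers of the same liver were 5.71 CPM, with a share of 0.857. These were 2 of 27 such comparisons, over the named genes, the ratios and the marker lists, and chance passes the limit in about 1 in 20. No member and no ratio between members passed it. In that liver Plin2 was 231 CPM, between those of the other 3. The part of adipocytes or lymphocytes in the values of the members was not tested.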

How the results depend on the processing

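Of 140 values of the 10 members under 14 alternatives, 135 kept their direction or stayed uncalled on the same side of the threshold, 5 lost the call and 0 reversed while called. Uncalled, Pnpla2 (-0.16 to 0.07) and Mgll (-0.12 to 0.20) changed sign with 1 liver left out. The 5 were Plin2 with 1 liver left out, and Plin2 was the 1 member called under any alternative. The number of members called lower was 0 to 1 when each liver was left out, and 0 were called higher under every alternative run. Genes of the other lists called lower numbered 3, against 8 by DESeq2, 5 with the replicate block, 8 at an adjusted p under 0.1 and 1 to 5 with 1 liver left out. Those called higher numbered 0, against 2, 3, 2 and 0 to 1. Over all genes, 169 were called lower, against 699 by DESeq2, 312 by library size only, 347 without the filter on low counts, 656 with the replicate block, 825 at an adjusted p under 0.1 and 22 to 464 with 1 liver left out. The 129 called higher became 633 by DESeq2, 107 by library size only, 245 without the filter, 670 with the replicate block, 841 at an adjusted p under 0.1 and 16 to 427 with 1 liver left out. Of the fits without 1 liver, the lowest counts came without WT replicate 2 and the highest when TET1 KO replicate 4 was left out. The cause was not tested, apart from the looser threshold. The replicate numbers did not pair the livers: deviations of same-numbered livers correlated at 0.209, -0.123 and -0.0964. With the replicate block Plin2 had a log2 fold change of -1.13 (edgeR adjusted p = 0.0206). That block takes TET1 KO replicate 4 out of the genotype difference, since no WT liver has its number. Of the 6 ratios, 5 kept their sign under each alternative, and that of Hilpda to Pnpla2 turned from -0.09 to 0.08 when WT replicate 3 was left out and 0.11 when TET1 KO replicate 2 was, as values without a test. At 21 to 158 counts, Hilpda and Pnpla3 had the largest standard errors of the members.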
